A study of Mus musculus with 13 samples.

Results

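T (Brachyury), Eomes, Mixl1, Lhx1 and Gsc are transcription factor genes of the mesendoderm, the cells of the early embryo that give rise to mesoderm and endoderm. The 5 genes were selected by name, with earlier results of the same RNA-seq comparison in view, from the 24421 genes counted, and each has 1 row in the counts of both replicates and reads in every library. Because the difference between cultures with and without doxycycline (dox) helped to choose them, their differences are given below as a description, and calls that include them are counted once beside the share of all genes called, with nothing read from them. Tests are given only for other genes: the signals that act before these factors, the genes that act with or after them, their gene families and their neighbors on the chromosome. Except for the neighbors, taken by position, these lists were also chosen with earlier results of these data known. Their calls therefore describe these cultures and give no independent support.

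The RNA came from F1-2.1 mouse embryonic stem (ES) cells, a female line from a cross of the strains CAST/Ei and 129/Sv/Jae, in which a Tet-on transgene makes CTCF S224E when dox is present. CTCF is a zinc finger protein of chromatin, and in S224E a glutamate stands in for a serine to imitate its phosphorylation. All cells came from 1 clone, A2, kept their own Ctcf gene, and were grown over irradiated mouse fibroblasts in serum with LIF. The +dox group (2 libraries) had 1 μg/mL dox for 6 days and the −dox group (2 libraries) had none. All 4 libraries carry the transgene. Effects of dox itself and of CTCF S224E cannot be told apart, since no library from dox-treated cells lacking the transgene was analysed here. With dox the vector also makes EGFP, a fluorescent protein, and no RNA library with a wild-type CTCF transgene was analysed here. Effects of EGFP, of added CTCF and of the S224E change therefore cannot be told apart either. Between 22899107 and 30206085 reads were counted per library, and values are given as CPM (counts-per-million, a gene's reads relative to the library total) scaled between libraries by the TMM method.

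During gastrulation, Nodal, Wnt, BMP and FGF signals switch on these genes in the primitive streak. T and Eomes belong to the T-box family and bind DNA through the same type of domain. T is needed for posterior mesoderm and the notochord. Eomes is needed for cells to leave the streak and for definitive endoderm, and it also acts in trophoblast. Mixl1 and Gsc are paired-like homeobox factors, of the nascent mesendoderm and of the anterior streak and organizer, and Lhx1 is a LIM-homeobox factor of the organizer, the axial mesendoderm and the visceral endoderm. ES cells held in LIF are mostly in a state before the streak, and transcripts of these genes in such cultures are usually read as a sign of some cells starting to differentiate.

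The stretch before the start site is shown for the factors with an entry in the RefSeq promoter table, because these are genes at separate loci whose transcripts were all lower in the same 2 libraries. T, Eomes, Lhx1 and Gsc had an entry and Mixl1 did not. Each line gives the 250 bases before the start site, 5′ to 3′ on the strand of the gene, in GRCm38.p6. T lies at chr17:8434173-8434422 on the plus strand, Eomes at chr9:118477939-118478188 on the plus strand, Lhx1 at chr11:84525535-84525784 on the minus strand and Gsc at chr12:104473237-104473486 on the minus strand. Capitals mark matches, on either strand, to the motifs named in the next paragraph.
T: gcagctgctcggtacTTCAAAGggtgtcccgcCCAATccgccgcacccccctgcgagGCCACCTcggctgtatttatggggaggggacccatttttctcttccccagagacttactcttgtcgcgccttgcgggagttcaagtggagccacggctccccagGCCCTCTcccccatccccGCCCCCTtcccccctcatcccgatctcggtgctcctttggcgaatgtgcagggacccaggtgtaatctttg
Eomes: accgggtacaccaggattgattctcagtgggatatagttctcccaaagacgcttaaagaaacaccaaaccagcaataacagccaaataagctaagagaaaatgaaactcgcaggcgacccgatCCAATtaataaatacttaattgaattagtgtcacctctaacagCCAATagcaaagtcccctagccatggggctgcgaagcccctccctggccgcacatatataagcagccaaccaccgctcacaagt
Lhx1: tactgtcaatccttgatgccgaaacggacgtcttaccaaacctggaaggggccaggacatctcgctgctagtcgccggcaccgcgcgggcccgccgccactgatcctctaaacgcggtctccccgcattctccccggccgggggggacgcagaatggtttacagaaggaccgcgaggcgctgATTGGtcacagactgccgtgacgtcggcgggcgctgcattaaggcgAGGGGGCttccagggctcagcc
Gsc: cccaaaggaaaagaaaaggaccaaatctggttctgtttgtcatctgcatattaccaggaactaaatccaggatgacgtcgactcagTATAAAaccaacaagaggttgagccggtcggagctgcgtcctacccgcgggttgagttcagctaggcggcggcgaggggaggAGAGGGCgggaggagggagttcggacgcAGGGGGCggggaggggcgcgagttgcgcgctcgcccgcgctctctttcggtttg

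The 4 sequences differ in base composition, from 46.4% G and C in Eomes to 64.8% in Lhx1, where the median of 27025 promoters in the table was 52.0%. A TCF/LEF match, CTTTGAA or its variant CTTTGAT, was found in T, at positions -235 to -229 from the start site, and 7.67% of all promoters held one. Short cores of the CTCF motif, spelled AGGGGGC with the variants AGGTGGC as well as AGAGGGC and also AGATGGC, were present in T (3 matches), Gsc (2 matches) and Lhx1 (1 match), and in 23.4% of all promoters. A CCAAT box was present in T, Eomes and Lhx1, and in 34.5% of all promoters. The TATA box spelling TATAAA was matched in Gsc, at positions -164 to -159, and in 13.0% of all promoters. Other spellings of the TATA box were not searched. None of the 4 held the T-box core GGTGTGA (3.31% of all promoters), the FOXH1 spellings ATCCACA or the variant ATACACA (5.88%), the paired-like homeodomain site TAATCC (6.38%) or the homeodomain core TAATTA (4.90%). No motif searched was shared by all 4. These are matches of letters in a short window and say nothing about whether a factor was bound.

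All 5 factors were lower in both +dox libraries than in both −dox libraries, and the size of the difference varied widely among them. Lhx1 differed most, at 19.2-fold lower, and Gsc least, at 2.40-fold lower. T, 8.74-fold lower, had the highest level of the 5 without dox and so had the largest difference in reads. In counts from whole cultures, fewer cells of a type and less RNA per cell cannot be told apart.

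T (chromosome 17, 8627288 to 8635361 in mm9, plus strand, 8 exons) had 129 and 164 reads in +dox replicates 1 and 2, against 1415 and 1674 in −dox replicates 1 and 2. Scaled, this was 5.73 and 7.18 CPM with dox, and 46.3 and 66.7 CPM without. Both libraries of each condition sat far from those of the other, and −dox replicate 2 was the highest of the 4. The group means were 6.46 ± 1.03 CPM for +dox and 56.5 ± 14.4 CPM for −dox (SD, n = 2 each), with a log2 fold change of -3.13 (standard error 0.20). Within replicate 1 the −dox level was 8.08 times the +dox level, with a 95% counting interval of 6.75 to 9.76, and within replicate 2 it was 9.29 times (7.91 to 11.0). These exact binomial intervals cover counting error only.

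Eomes (chromosome 9, 118387307 to 118395250, plus strand, 6 exons), the other T-box member, had 247 and 268 reads with dox, and 1067 and 991 reads without. On the CPM scale these were 11.0 and 11.7 with dox, and 34.9 and 39.5 without. Eomes replicates were close to each other in both conditions, at 11.4 ± 0.54 CPM for +dox and 37.2 ± 3.22 CPM for −dox (SD, n = 2 each). The log2 fold change was -1.71 (standard error 0.15), with -1.66 in replicate 1 and -1.74 in replicate 2. With dox, Eomes kept 30.5% of its −dox level, where T kept 11.4%, so the T-box members differed in how much transcript was left.

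Lhx1 (chromosome 11, 84332881 to 84339036, minus strand, 5 exons) had 25 and 20 reads with dox, and 525 and 533 reads without. These were 1.11 and 0.88 CPM with dox, and 17.2 and 21.2 CPM without. Its residual level of 5.17% was the smallest of the 5 factors, and the log2 fold change was -4.27 (standard error 0.25). In replicate 1 the −dox level was 15.5 times the +dox level (95% counting interval 10.4 to 24.1), and in replicate 2 it was 24.3 times (15.5 to 40.0). The intervals of the replicates overlapped. Of 13911 genes that averaged 1 CPM or more over the 4 libraries, called expressed genes below, only 1 had a more negative log2 fold change than Lhx1.

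Mixl1 (chromosome 1, 182623179 to 182627165, minus strand, 2 exons) was the factor with the fewest reads, 6 and 12 with dox, and 137 and 109 without. The levels were 0.27 and 0.53 CPM with dox, and 4.48 and 4.34 CPM without, so the −dox libraries were nearly equal and the spread lay in the +dox libraries. The log2 fold change was -3.46 (standard error 0.37), with -3.72 in replicate 1 and -2.87 in replicate 2. Its fold was the least certain of the 5 at this depth. The −dox level was 16.8 times the +dox level in replicate 1, with a counting interval from 7.54 to 46.7, and 8.27 times in replicate 2, from 4.55 to 16.5.

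Gsc (chromosome 12, 105709419 to 105711446, minus strand, 3 exons) had 100 and 95 reads with dox, and 351 and 230 reads without. This was 4.44 and 4.16 CPM with dox, and 11.5 and 9.17 CPM without. The log2 fold change of Gsc was -1.26 (standard error 0.22), with -1.36 in replicate 1 and -1.12 in replicate 2, and 41.6% of the −dox level was left with dox. The −dox level was 2.59 times the +dox level in replicate 1 (2.07 to 3.26) and 2.20 times in replicate 2 (1.73 to 2.83). Both Gsc intervals lay below those of T, Lhx1 and Mixl1 in the same replicate.

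**Figure D1:**
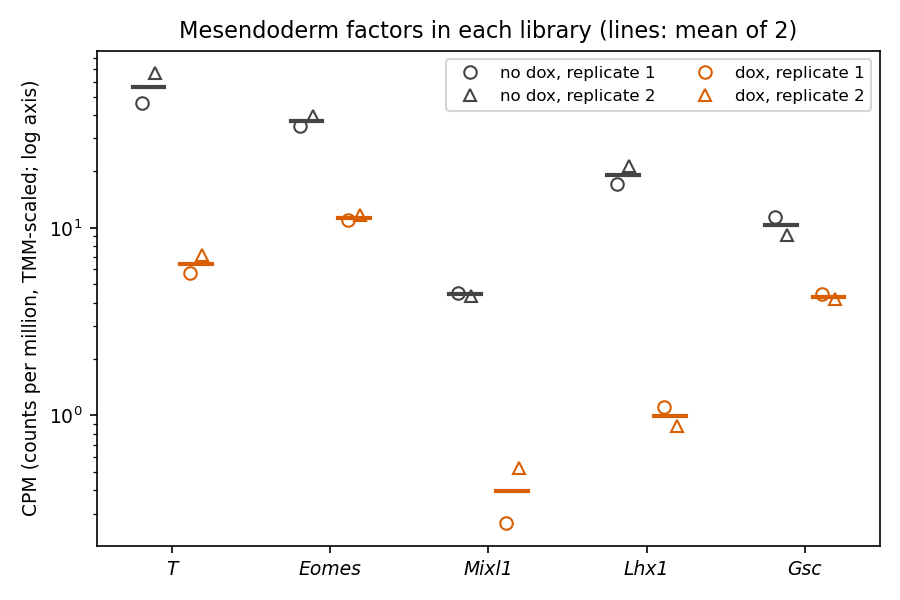
Level of each factor in CPM (log axis) in the 4 libraries, with circles for replicate 1, triangles for replicate 2 and a line at the mean of each condition. The +dox and −dox points do not overlap for any factor, and the distance between them runs from 2.40-fold for Gsc to 19.2-fold for Lhx1.

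Among the 13911 expressed genes, 27.7% lay lower in both +dox libraries than in either −dox library and 26.1% higher, so a lack of overlap is common with 2 libraries in each group. A log2 fold change of -1 or below was found in 1.98% of them, and all 5 factors were in that range. By edgeR's quasi-likelihood test at an adjusted p-value under 0.01, 0.599% of 20044 tested genes were called, 0.519% lower and 0.0798% higher, and the lower ones included T, Eomes, Mixl1 and Lhx1 but not Gsc. By DESeq2, 1.87% were called, 1.28% lower and 0.589% higher, and the lower ones included all 5 factors. Nothing is read from these calls, since the factors were chosen in view of this comparison. In the order of decreases among the 13911 genes, Lhx1 was number 2, Mixl1 number 4, T number 6, Eomes number 62 and Gsc number 145.

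**Figure D2:**
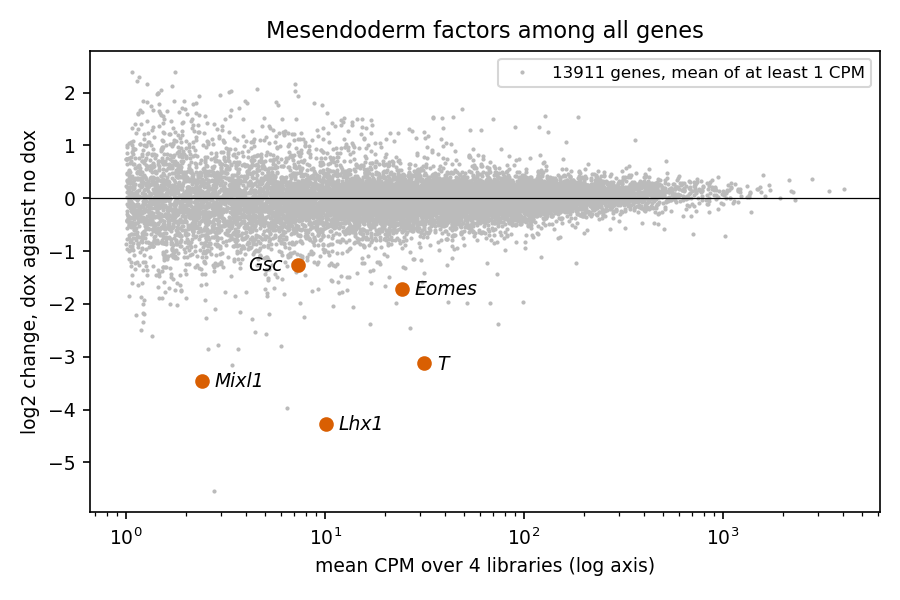
Log2 fold change (+dox against −dox) against mean CPM over the 4 libraries (log axis) for 13911 genes in gray, with the 5 factors in orange. Lhx1, Mixl1 and T lie below nearly all genes of like abundance, while Eomes (-1.71) and Gsc (-1.26) lie closer to the edge of the cloud.

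Calls by edgeR's test depended on which libraries entered the fit. Without −dox replicate 1 or without −dox replicate 2, 0 genes were called (with 1753 and 1450 under 0.05 before adjustment), and without +dox replicate 1 or 2, 992 and 877 genes were called, against 120 with all 4. The log2 fold changes of the factors kept their sign in all 4 of these fits. Without +dox replicate 1 they were -2.97 for T, -1.66 for Eomes, -3.06 for Mixl1, -4.45 for Lhx1 and -1.31 for Gsc.

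Markers of other cells in the cultures were examined beside the factors. For scale, edgeR called 0.599% of all 20044 tested genes, and 3566 of them were under 0.05 before adjustment. The pluripotency genes were highly expressed in every library, as the label of ES cells requires, with Pou5f1 at 1148 and 1254 CPM with dox and 949 and 1016 CPM without. Summed over 12 pluripotency markers, the level was 7118 and 7949 CPM with dox and 6410 and 6759 CPM without, and edgeR called 0 of the 12 genes (6 were under 0.05 before adjustment, and DESeq2 also called 0). Of 12 fibroblast markers, the 11 that were expressed all had a positive log2 fold change, with a median of 1.33. The summed fibroblast level was 1157 and 484 CPM with dox and 360 and 393 CPM without, so it was by far the highest in +dox replicate 1. All 11 were higher in both +dox libraries than in either −dox library, as 26.1% of all expressed genes were. Their median log2 fold change was 1.75 in replicate 1 and 0.42 in replicate 2. edgeR called 0 of these 12 genes, 11 were under 0.05 before adjustment, and DESeq2 also called 0, while a fit with a replicate block called 9 higher. The part of fibroblast RNA in the lower levels of the factors was not tested.

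Markers of trophoblast, which also uses Eomes, were mixed. The 8 trophoblast markers summed to 33.9 and 24.9 CPM with dox and 20.1 and 31.6 CPM without, Tpbpa and Prl3d1 had 0 reads, and Elf5 was at most 0.27 CPM. The other 5 were expressed, and 4 of them had a positive log2 fold change, the largest being 1.13 for Tfap2a (3.51 and 3.85 CPM with dox, 1.28 and 2.11 CPM without), while Krt7 had one of -1.07. edgeR and DESeq2 called 0 of the trophoblast markers (3 were under 0.05 before adjustment), and their part in the level of Eomes was not tested. The 9 markers of visceral and parietal endoderm, where Lhx1, Eomes and Gsc can be expressed, summed to between 36.5 and 43.5 CPM in the 4 libraries, with Ttr at 0 reads and Afp at no more than 0.18 CPM. Neural progenitor markers, 8 genes, summed to 192 and 199 CPM with dox and 176 and 138 CPM without. Among them Pax6, a factor of the early neural plate and eye, rose from 14.2 ± 0.44 CPM (SD, n = 2) to 30.2 ± 5.37 CPM (SD, n = 2) with dox (log2 fold change 1.08, edgeR's adjusted p-value 0.00573). Sox1, also of the early neural plate, had 2.93 and 3.24 CPM with dox and 1.47 and 1.08 CPM without, and did not pass the test (log2 fold change 1.26, adjusted p-value 0.0504).

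Levels of different genes can be compared only per length, here as RPKM (CPM divided by the length of counted exon in kilobases). Without dox, T was highest at 27.8 ± 7.08 RPKM (SD, n = 2), above Eomes at 10.0 ± 0.87, Gsc at 8.84 ± 1.41, Lhx1 at 7.01 ± 1.05 and Mixl1 at 1.93 ± 0.04 (SD, n = 2 for each). Eomes and Gsc changed places between the −dox replicates, and Gsc and Lhx1 were nearly equal in −dox replicate 2, at 7.84 and 7.74 RPKM, so these neighbors did not differ beyond their spread. T and Mixl1 stood apart at the top and the bottom in both −dox libraries. For comparison, Pou5f1 had a mean of 730.0 RPKM without dox. The percentile of each factor among all tested genes ran from 42.2 for Mixl1 to 81.9 for T.

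With dox the order changed, and Gsc, the factor with the smallest difference, had the highest level per length in both libraries. It had 3.68 ± 0.17 RPKM (SD, n = 2), followed by T at 3.17 ± 0.50 and Eomes at 3.06 ± 0.15. Gsc and T were almost level in +dox replicate 2, at 3.56 and 3.53 RPKM, and T and Eomes changed places between the replicates. Lhx1, at 0.36 ± 0.06 RPKM, and Mixl1, at 0.17 ± 0.08 RPKM, were far below the other 3. As a share of the summed RPKM of the 5 factors, T made up 45.3% and 53.8% without dox, against 27.9% and 32.7% with dox. Gsc went the other way, from 19.6% and 12.9% without dox to 37.6% and 32.9% with dox, and Lhx1 went from 12.5% and 12.7% to 4.01% and 2.96%. The sum for the 5 factors was 50.2 and 60.9 RPKM without dox and 10.1 and 10.8 RPKM with dox. These shares and sums restate the unequal differences of the 5 chosen genes and are a description only.

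**Figure D3:**
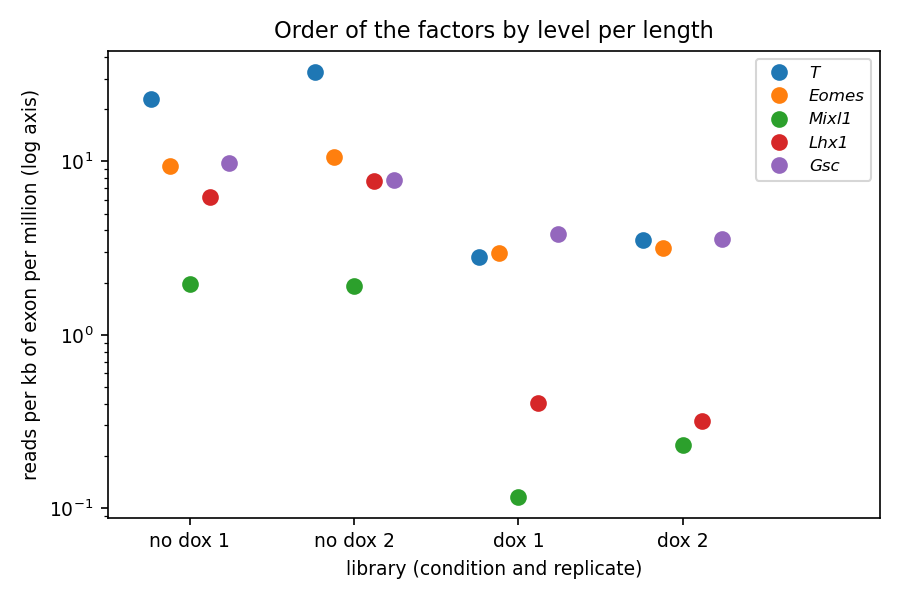
Level per length of the 5 factors (RPKM, log axis) in each library, with points of one library side by side. T is highest in both −dox libraries (22.8 and 32.8), and Gsc is highest in both +dox libraries (3.80 and 3.56), where Lhx1 and Mixl1 lie below 0.5.

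Replicates of a condition were also compared with each other, and between the −dox cultures the factors did not all differ in the same direction. This compares 2 libraries per condition, and the intervals cover counting error only. Between the −dox cultures, T was 1.44 times as high in replicate 2 as in replicate 1, with a 95% counting interval of 1.34 to 1.55. Lhx1 was 1.24 times as high (1.09 to 1.40) and Eomes 1.13 times (1.04 to 1.23), while Gsc was 0.80 times as high (0.67 to 0.94) and Mixl1 0.97 times (0.75 to 1.25). The intervals of T and Gsc lay on opposite sides of 1. For scale, 80% of the 13911 expressed genes had a ratio between 0.83 and 1.25 in this pair, so T was outside that range and Gsc just outside it. The endoderm factor gene Foxa2, which as given below was also lower with dox, was 1.52 times as high in −dox replicate 2 (1.28 to 1.80), and Cyp26a1 1.47 times (1.26 to 1.72). Fgf8, at 0.93 times (0.84 to 1.03), and Cer1, at 1.09 times (0.86 to 1.37), differed by less than their counting error. Between the +dox cultures every interval of the 5 factors included 1, the narrowest being 0.90 to 1.28 for Eomes and the widest 0.68 to 6.40 for Mixl1.

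Signals that act before the factors were compared next, to see which levels of the pathway differed along with them. Of 40 genes for Nodal, Wnt, BMP and FGF ligands, receptors, transducers and antagonists, all with reads, edgeR called 4 lower (Cer1, Fgf8, Fgf5 and Sp5), 0 higher, and 36 did not pass the test. DESeq2 called 6 lower and 1 higher. Of all 20044 tested genes, edgeR called 0.519% lower and DESeq2 1.28%, and this list was chosen with earlier results known. The median log2 fold change of its 38 expressed genes was -0.26, where that of all 13911 genes was near 0 (-0.0011). Without either −dox library 0 of the 40 were called, and without +dox replicate 1 or 2 the counts were 12 and 9.

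In the Nodal pathway, the ligand and its core transducers were not called by edgeR, while the antagonist Cer1 fell steeply. Nodal had 124 and 125 CPM with dox and 113 and 107 CPM without (log2 fold change 0.18, adjusted p-value 0.374 from edgeR). Foxh1, the DNA-binding partner of the Smad proteins, had a log2 fold change of 0.31 (adjusted p-value 0.0947). Gdf3, a ligand related to Nodal, had 268 and 290 CPM with dox and 199 and 190 CPM without, which missed the threshold in edgeR (adjusted p-value 0.0132) and passed it in DESeq2 (1.05e-04). Of the co-receptors, Tdgf1 had a log2 fold change of -0.05, while Cfc1 had 0.58 and 0.70 CPM with dox and 2.46 and 2.31 CPM without, which neither tool called (log2 fold change -1.89, adjusted p-value 0.0183 from edgeR and 0.0402 from DESeq2). Of the transducers, Smad2 had a log2 fold change of 0.06 and Smad3 one of -0.53 (adjusted p-value 0.0847). Lefty1 and Lefty2, feedback antagonists of Nodal, had values of 0.04 and -0.15 and were not called. Cer1, a secreted antagonist made by anterior endoderm, fell from 158 and 141 reads without dox to 3 and 2 reads with dox, and its summed −dox level was 48.7 times the +dox level, with a 95% counting interval of 20.7 to 151 (log2 fold change -5.55, adjusted p-value 3.53e-05 from edgeR).

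In the Wnt pathway, edgeR called the target Sp5, and DESeq2 also called Axin2, Dkk1 and the co-receptor Lrp5. Sp5, a direct target of Wnt signaling, fell from 24.4 ± 4.04 CPM (SD, n = 2) to 9.37 ± 0.12 CPM (SD, n = 2) with dox (log2 fold change -1.38, adjusted p-value 0.00208 from edgeR). Axin2, a feedback target, had 16.3 and 15.8 CPM with dox and 26.0 and 27.6 CPM without, a difference called by DESeq2 (adjusted p-value 0.00254) and not by edgeR (0.0257). Wnt3, the ligand of the proximal epiblast and streak, had 3.91 and 2.45 CPM with dox and 6.94 and 6.89 CPM without (log2 fold change -1.12, adjusted p-value 0.0437). The antagonist Dkk1 had 12 and 5 reads with dox and 63 and 65 without, which just missed the threshold in edgeR (adjusted p-value 0.0104) and passed it in DESeq2 (0.00871). Lrp5 had 98.3 and 94.2 CPM with dox and 140.2 and 123.0 CPM without (log2 fold change -0.45, adjusted p-value 0.0384 from edgeR and 0.00967 from DESeq2). Ctnnb1, the gene of beta-catenin, had a log2 fold change of -0.25, the TCF factor gene Tcf7 one of -0.38, and Tcf7l1, a repressor of Wnt targets, one of 0.41, and neither edgeR nor DESeq2 called any of these.

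Of the FGF ligands, Fgf8, made in the streak, fell from 28.2 ± 1.51 CPM (SD, n = 2) to 5.43 ± 0.37 CPM (SD, n = 2) with dox (log2 fold change -2.38, adjusted p-value 3.53e-05 from edgeR). Fgf5, a gene of the epiblast after implantation, had 36.9 and 35.3 CPM without dox and 12.7 and 5.69 CPM with dox (log2 fold change -1.97, adjusted p-value 0.0029 from edgeR and 0.0112 from DESeq2). The +dox replicates of Fgf5 differed from each other by more than a factor of 2. Fgf4, the FGF ligand of ES cells, had a log2 fold change of 0.25, and Fgfr1 one of -0.01. The BMP ligand Bmp4 had 86.8 and 98.6 CPM with dox and 76.6 and 100.4 CPM without, with the groups overlapping, and no BMP receptor or Smad on the list was called.

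Genes that work with or after the factors differed unevenly. Of 35 genes of the streak, its mesoderm, the definitive endoderm and the axial midline, all with reads, edgeR called 5 lower (Cyp26a1, Foxa2, Sox17, Gata6 and Aplnr), 0 higher, and 30 did not pass. DESeq2 called 7 lower and 0 higher. The shares called lower among all 20044 tested genes were 0.519% and 1.28%, and this list too was chosen with earlier results known. Over its 29 expressed genes the median log2 fold change was -0.34, with -0.17 in replicate 1 and -0.65 in replicate 2. Without either −dox library the count of calls was 0, and without +dox replicate 1 or 2 it was 12 and 10.

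The 5 called genes act in different cells around the streak. Foxa2, a forkhead factor of the anterior streak and endoderm, fell from 8.28 and 12.6 CPM without dox to 1.55 and 1.45 CPM with dox, a log2 fold change of -2.79 (edgeR's adjusted p-value 4.60e-04). Sox17, which specifies definitive endoderm, fell from 8.65 ± 1.40 CPM (SD, n = 2) to 1.45 ± 0.36 CPM (SD, n = 2), at an adjusted p-value of 7.13e-04. Gata6, a factor of primitive and definitive endoderm, had 5.27 and 6.97 CPM without dox and 1.64 and 1.10 CPM with dox (adjusted p-value 0.00309). Cyp26a1, the enzyme that degrades retinoic acid in the streak and tail end of the embryo, had 9.82 and 14.4 CPM without dox and 0.93 and 0.61 CPM with dox (log2 fold change -3.96, adjusted p-value 5.89e-05). Aplnr, a receptor of early mesoderm, had 61 and 50 reads without dox and 0 in both +dox libraries, at least 30.2-fold lower when a floor of 3 counts over both +dox libraries is used. edgeR gave Aplnr an adjusted p-value of 7.37e-04, and DESeq2 gave none after its filter on low counts. Its mean over all libraries was under 1 CPM, so the median of the list does not include it.

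Other genes of this list were near the limit of detection or were not called by edgeR. Mesp1, an early mesoderm factor that Eomes activates, had 0.27 and 0.48 CPM with dox and 0.88 and 0.40 CPM without, so the groups overlapped. Msgn1, a target of T in presomitic mesoderm, was at most 0.64 CPM in any library, and Noto, a notochord factor, at most 0.32 CPM. Chrd, a BMP antagonist of the node where Gsc is expressed, had 5.33 and 4.25 CPM with dox and 9.49 and 10.8 CPM without (adjusted p-value 0.0256 from edgeR and 0.00818 from DESeq2). Gata4 behaved alike, with a log2 fold change of -1.06 (adjusted p-value 0.0197 from edgeR and 0.00373 from DESeq2). Evx1, a posterior streak factor, had 6.57 and 6.31 CPM with dox and 6.81 and 7.53 CPM without, and Hhex, an anterior endoderm factor, had a log2 fold change of 0.19, and neither was called. Snai2 and Pdgfra, which fibroblasts also express, were high in +dox replicate 1 alone, Snai2 with 4.62 CPM against 1.08 to 1.53 in the other libraries and Pdgfra with 8.66 CPM against 2.01 to 3.08.

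**Figure D4:**
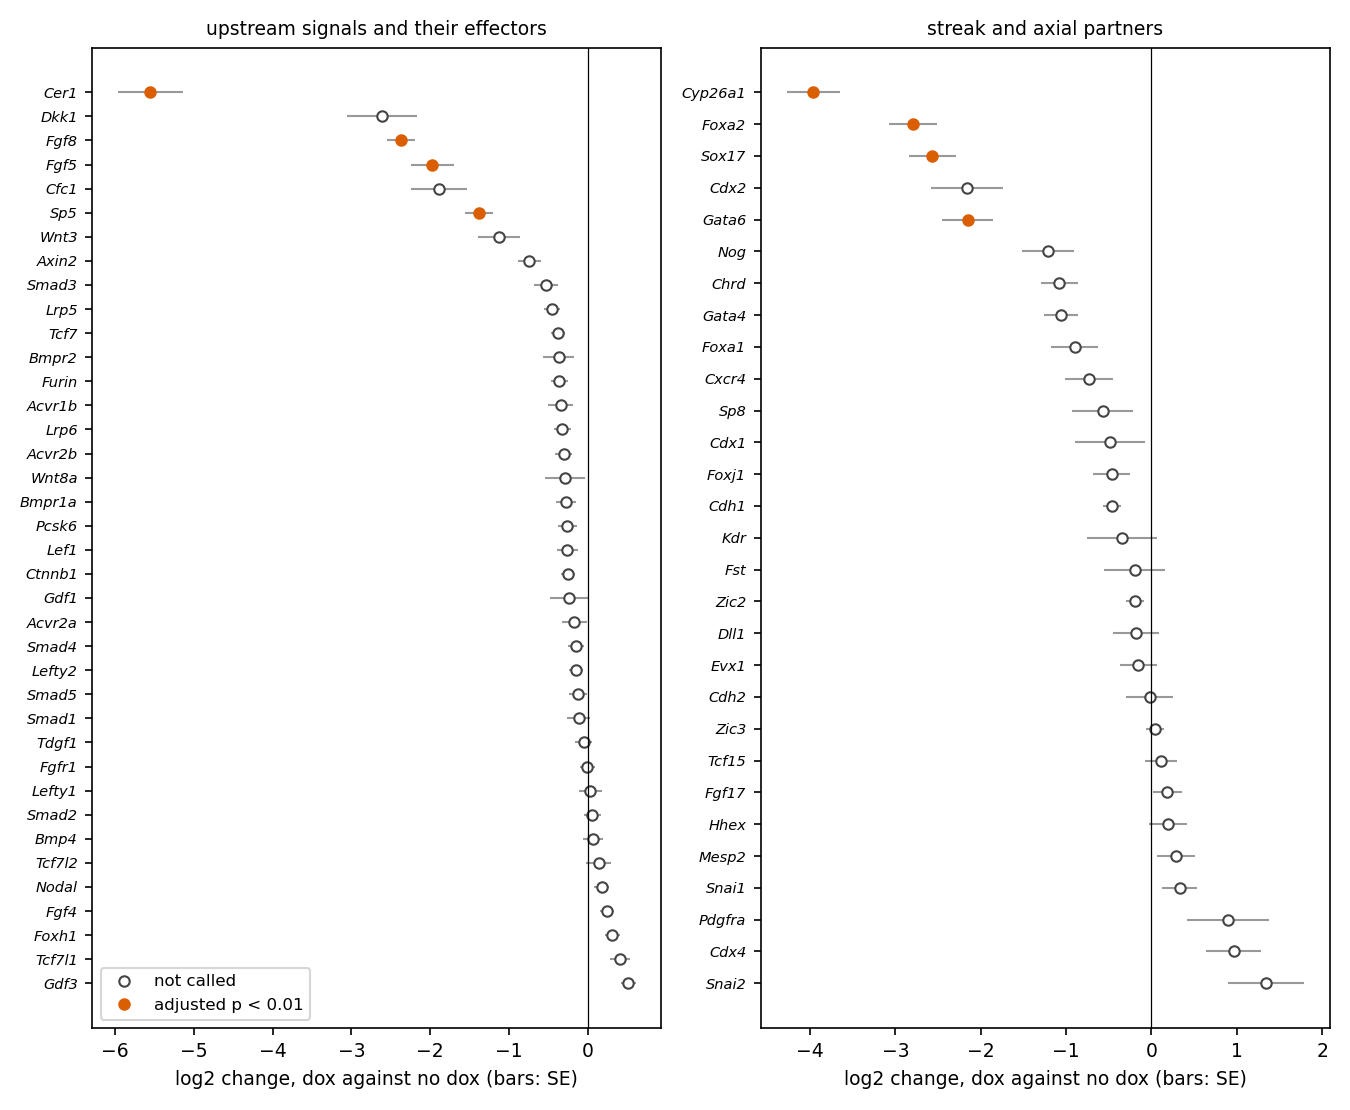
Log2 fold change (+dox against −dox) with its standard error for the signaling genes (left) and the streak and axial genes (right) that were expressed, with filled points for an adjusted p-value under 0.01 from edgeR. Nodal, Foxh1, Gdf3 and Bmp4 lie at or above 0, while Cer1 (-5.55), Cyp26a1 (-3.96) and Foxa2 (-2.79) lie at the far left among the called genes. Aplnr, which was called, is left out because its mean was under 1 CPM.

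The gene families of the factors were compared to see whether relatives of the same DNA-binding type were lower too. Of 58 relatives, 15 T-box, 17 LIM-homeobox genes and LIM cofactors, and 26 paired-like homeobox genes, 57 had reads, and edgeR called 0 of them. Before adjustment 13 were under 0.05, 5 of them lower and 8 higher, and DESeq2 called 1, which was lower. Of all 20044 tested genes, edgeR called 0.599% and DESeq2 1.87%, and 3566 were under 0.05 before adjustment. With shares this low, nothing is read from 0 calls in a list of this size. A mean under 1 CPM was found in 26 of the 57. Among the 31 others none had a log2 fold change of -1 or below, as against 1.98% of all expressed genes. With TMM scaling 24 had a positive value and with scaling by total counts 19, and the median was 0.24.

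Tbx3, a T-box factor of naive ES cells, had 237 and 301 CPM with dox and 240 and 268 CPM without, and the groups overlapped (log2 fold change 0.08). Mga, a T-box protein that also binds MAX, had a log2 fold change of -0.02. Tbx6, the T-box factor that follows T in paraxial mesoderm, was at 1.07 and 1.01 CPM with dox and 1.05 and 0.64 CPM without. Lhx5, a close relative of Lhx1 in the forebrain, had 1.33 and 1.14 CPM with dox and 0.59 and 0.52 CPM without, the opposite order to Lhx1, and did not pass the test (adjusted p-value 0.166 from edgeR). Ldb1, the cofactor through which LIM-homeobox proteins act, had a log2 fold change of 0.01, and its partner Ssbp3 one of -0.01. Otx2, which works with Lhx1 and Gsc in the anterior embryo, had 113 and 90.6 CPM with dox and 129 and 124 CPM without (log2 fold change -0.31, adjusted p-value 0.174). Prrx1 and Prrx2, of limb and craniofacial mesenchyme, were again high in +dox replicate 1, at 26.3 and 15.9 CPM, as the fibroblast markers were.

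To compare the factors with their surroundings, the 3 nearest genes with reads on each side of each factor were taken by position, 30 genes at distances up to 705 kb. edgeR called 0 of the 30 (7 were under 0.05 before adjustment, and DESeq2 called 1). Of all 20044 tested genes, edgeR called 0.599% and DESeq2 1.87%, and 3566 were under 0.05 before adjustment. With shares this low, nothing is read from 0 calls in a list of this size. Over the 24 that were expressed the median log2 fold change was -0.09 and none was at -1 or below, as against 1.98% of all expressed genes. Next to Mixl1, the gene Lin9 ends 2.36 kb away and had a log2 fold change of -0.21 (adjusted p-value 0.478), and Acbd3 on the other side had one of -0.19. Of the 24 genes, 14 had a negative value and 10 a positive one. Prr18, 90.3 kb from T, had the lowest value of the 24, -0.85. It had 39 and 38 reads with dox and 85 and 84 without. Beside Eomes, Golga4 at 20.2 kb had a value of -0.09 and Ctdspl at 440 kb one of -0.57. Aatf, 5.88 kb from Lhx1, had one of 0.07, and Dicer1, the first gene with reads on the higher side of Gsc, one of -0.12. Clmn, 289.9 kb from Gsc, was the gene that DESeq2 called, with 40.6 and 44.1 CPM with dox and 59.7 and 62.6 CPM without (log2 fold change -0.53, adjusted p-value 0.0336 from edgeR and 0.00592 from DESeq2). On the lower side of Gsc, Serpina3n had 5.82 CPM in +dox replicate 1 and 0.84 to 1.18 CPM in the other 3 libraries.

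Lhx1os is transcribed in the opposite direction from a start 0.126 kb from that of Lhx1, and had 4 and 2 reads without dox and 0 in both +dox libraries, too few for a fold. So were those of 4933432G23Rik, 41.1 kb from Eomes, with 2 and 3 reads without dox and 0 in both +dox libraries. T2, 11.7 kb from T on the same strand, had 0.98 and 0.31 CPM with dox and 0.56 and 0.92 CPM without, with the groups overlapping. In the annotation of NCBIM37, the build that mm9 stands for, no other gene shares exon bases with any of the 5 factors. The libraries are directional, but whether the strand was used in counting is not given in the sources used here.

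**Figure D5:**
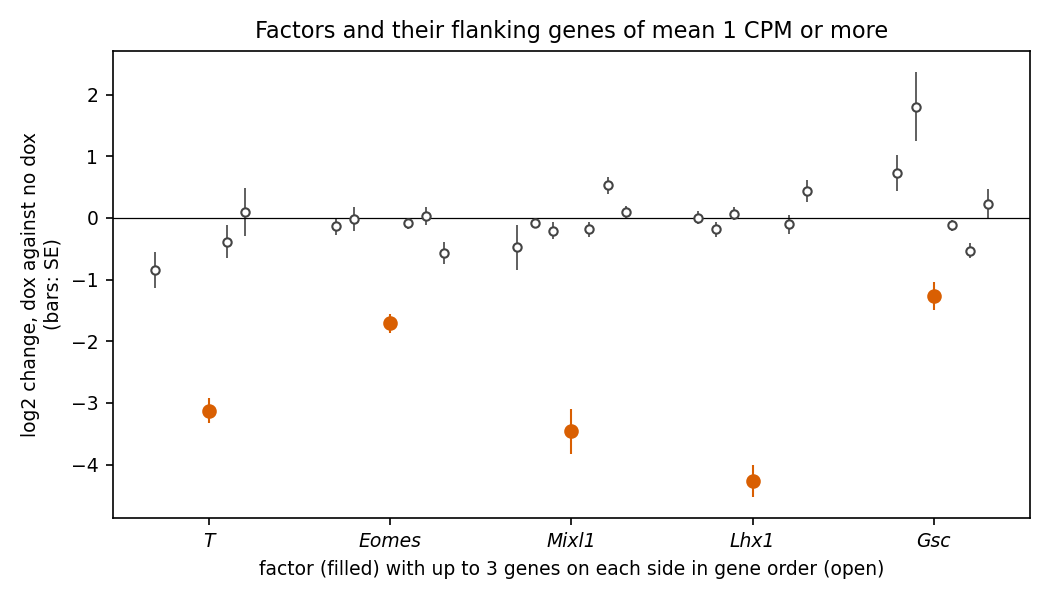
Log2 fold change (+dox against −dox) with its standard error for each factor (filled) and for up to 3 genes on either side in order of position (open; genes with a mean under 1 CPM left out). The factors lie between -1.26 and -4.27, and every flanking gene shown lies above -1, where 1.98% of all expressed genes lay at or below -1.

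Genes with the pattern most like that of T, Eomes, Mixl1 and Lhx1 were ranked by the Euclidean distance between their 4 log2 CPM values, centered on their own mean, and the average of the 4 factors, among expressed genes. The 8 closest were Slc39a8, Psmb8, Foxa2, Sox17, Grin1, Actc1, Fgf8 and Ndufa4l2, at distances from 0.41 to 0.83. For scale, T was at 0.21, Mixl1 at 0.51, Lhx1 at 1.17, Eomes at 1.37 and Gsc at 1.88. Slc39a8, a zinc and manganese transporter, had 0.89 and 0.88 CPM with dox and 6.52 and 6.30 CPM without. Ndufa4l2, a mitochondrial protein, had 9.82 and 6.70 CPM with dox and 46.1 and 44.8 CPM without. Only Foxa2, Sox17 and Fgf8 of the 8 were on the lists above, and likeness over 4 libraries describes these cultures without showing any shared control.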

How the data were processed

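Polyadenylated RNA of F1-2.1 ES cells (clone A2) with the Tet-on CTCF S224E transgene was sequenced from 2 +dox and 2 −dox cultures. The authors used cutadapt for trimming, TopHat2 for alignment to mm9 and HOMER to count unique exonic reads after removal of duplicates, and the deposited values are raw counts per gene, in 1 file per replicate. The versions of these tools are not given in the sources used here. The files were joined by symbol (547 genes have another transcript in the second file, none of them a factor studied here). The ChIP-seq and Hi-C samples were not analysed here.

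Genes with at least 1 count in 1 library, 20044 in all, were tested with edgeR 4.0.16 (TMM, quasi-likelihood test, package defaults, R 4.3.3) without a replicate block, two-sided, with Benjamini-Hochberg adjustment over all genes and a threshold of 0.01. DESeq2 1.42.0 was the alternative. Log2 fold changes within a replicate used a prior count of 2. The ratios given as times, with their counting intervals, used no prior count, so they differ from those log2 values where reads are few. Standard errors come from the test statistic. P-values set the difference between groups against the spread between 2 cultures per group, with the estimate of that spread partly shared across genes. All cultures were of 1 clone, so variation between clones is not covered. Medians of lists use genes averaging 1 CPM or more over all libraries. The factors and the gene lists were chosen with earlier results of these data known. Named genes are the factors, genes of the lists, flanking genes and the 8 of nearest pattern. One family relative is not reported here by name. Promoter sequences are RefSeq's, in GRCm38.p6, and 4 of the 5 factors matched by symbol. Alternatives were other scalings, filters, tests and thresholds, a replicate block and leaving out each library.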

Additional observations from a re-analysis of the deposited data

How the results depend on the processing

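The number of called genes (120) changed with the processing, and the log2 fold changes of the factors stayed negative throughout. DESeq2 called 375 genes, edgeR with filterByExpr 11, with deviances adjusted for small counts 0 (3254 at an unadjusted p-value under 0.05) and at a threshold of 0.05 573, and leaving out 1 library gave 0 to 992. For the 40 signaling genes (4 called) these values were 7, 2, 0 (20 unadjusted), 10 and 0 to 12. For the 35 streak and axial genes (5 called) filterByExpr gave 1, adjusted deviances 0 (16 unadjusted), the threshold of 0.05 gave 9, and leaving out 1 library 0 to 12, while DESeq2 called 7. For family relatives (0 called) DESeq2 called 1, the threshold of 0.05 gave 1 and leaving out 1 library 0 to 5, and for flanking genes (0 called) 1, 1 and 0 to 2. The cause was not tested. Scaling by DESeq2 size factors or total counts gave 136 and 104 calls.

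Same-numbered libraries share a number in the labels, with no statement that they were cultured together, and their deviations correlated at 0.196 across 13911 genes. A replicate block in the fit raised the calls to 786 genes, 12 signaling genes, 10 streak and axial genes, 2 family relatives and 2 flanking genes, and, higher with dox, 9 fibroblast, 4 pluripotency and 2 neural markers, where the fit without it called 0, 0 and 1. In the Wnt and Nodal pathways the block also called Wnt3, Tcf7, Tcf7l1 and Cfc1 (adjusted p-values 0.00343, 0.00967, 0.00254 and 0.00121 from edgeR). Gdf3 and Lrp5, which DESeq2 called without a block, were called with it by edgeR as well (3.94e-04 and 0.00458).

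Leaving out 1 library moved the log2 fold change of T between -3.37 and -2.84, of Eomes between -1.80 and -1.62, of Mixl1 between -4.03 and -3.06, of Lhx1 between -4.45 and -4.11, and of Gsc between -1.42 and -1.09. For T in all 4 of these fits, for Eomes in 2 and for Gsc in 1, this was more than the spread of the replicates. Other scalings, filters and tests moved each by less than the spread of its replicates. Depth limits Mixl1, with 6 and 12 reads in the +dox libraries.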
